A study of Mus musculus with 36 samples.

Results

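RNA sequencing libraries of the striatum were compared between mice that carry a Maoa knock-in and wild-type mice. The comparison comprised the 3 knock-in (KI) and the 3 wild-type (WT) libraries whose labels name the region STR, read here as striatum, which are 6 of the 36 libraries of the series. Libraries were chosen by their region and genotype labels alone. All came from adult C57 mice of 6 to 7 weeks. The KI, per the series title, carries a synonymous base change in Maoa, so that the encoded protein is the same in both genotypes, and the title describes lower Maoa transcription and translation in the mice. The other 30 libraries cover 5 further brain regions labelled HP, PFc, Nac, SN and VTA with the same 2 genotypes. The labels give neither the substrain, the sex, the number of copies of the KI allele nor the number of founder lines. They also do not state that the libraries came from separate animals, so every p-value reflects the library-to-library spread alone, part of which may be technical.

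Monoamine oxidase A sits on the outer mitochondrial membrane and breaks down serotonin, noradrenaline and dopamine, and its gene lies on the X chromosome. Most neurons of the striatum are GABA-releasing projection neurons that receive dopamine from the midbrain. They are controlled by sparse interneurons, among them parvalbumin cells that fire fast trains of spikes and cholinergic cells. The thalamus, habenula, hypothalamus, septum and globus pallidus lie near the striatum and have marker genes of their own.

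The STR libraries held 16861869, 16935658 and 15741427 estimated counts in KI, against 17778762, 18374038 and 17945570 in WT, so that every KI library was shallower than every WT library. Levels are given as CPM, counts scaled for library size and composition. A marker score is the mean of log2(CPM + 1) over a list of marker genes, where CPM of total counts is used for the scores alone. The score of the striatal projection neuron list, 20 genes that include Ppp1r1b and Adcy5, was 7.7, 7.4 and 6.11 in KI 1, 2 and 3, against 8.62, 7.21 and 7.93 in WT 1, 2 and 3. KI 3 was the lowest of the 6. The thalamic score was 5.47, 5.51 and 6.01 in KI, against 5.07, 5.88 and 6.54 in WT, so KI 3 carried thalamic markers at a level between those of WT 2 and WT 3. KI 3 also stood apart in genes of other regions. Pmch, the melanin-concentrating hormone gene of the lateral hypothalamus, was at 208 CPM in KI 3 and at most 0.847 CPM in the other 5 libraries. Hcrt, the orexin gene, was at 31.1 CPM in KI 3 and at most 0.174 CPM elsewhere. Slc6a3, the dopamine transporter of midbrain neurons, was at 64.9 CPM in KI 3 and at most 1.92 CPM elsewhere. The choroid plexus score was 6.28, 6.3 and 4.55 in KI, against 6.05, 6.73 and 6.42 in WT. Hoxa2, a hindbrain gene, was at 0 in all 6 libraries. For these reasons calls, list counts and medians are also given without KI 3.

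The habenular score was 3.59, 2.56 and 3.89 in KI, against 1.33, 2.47 and 1.31 in WT. The hypothalamic score was 2.83, 1.88 and 3.08 in KI, against 1.66, 1.83 and 1.34 in WT. Each score was higher in all 3 KI libraries than in all 3 WT libraries, with KI 2 and WT 2 next to each other in both. The septal score was 5.08, 5.37 and 4.79 in KI, against 3.7, 4.91 and 4.19 in WT, with an overlap between KI 3 and WT 2. In bulk tissue, fewer cells of a type and less RNA per cell cannot be told apart.

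**Figure D1:**
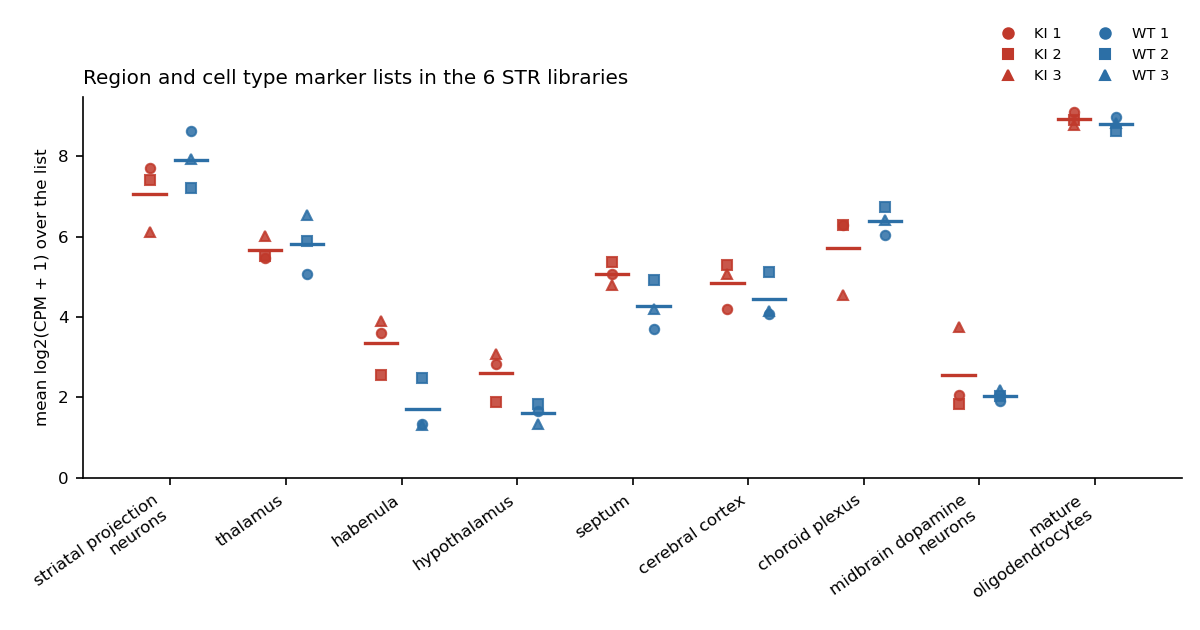
Marker scores (mean log2(CPM + 1) over each list, vertical axis) for 9 region and cell type lists in the 3 KI (red) and 3 WT (blue) STR libraries, with a bar at each genotype's mean. KI 3 (red triangle) is lowest for projection neuron and choroid plexus markers and highest for midbrain dopamine markers, and the habenular and hypothalamic scores are higher in every KI library than in every WT library.

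Maoa itself was at 65.6, 60.0 and 69.3 CPM in KI, against 44.9, 49.3 and 47.4 CPM in WT. Every KI library lay above every WT library, whereas the title describes lower transcription. The means were 65.0 ± 4.68 CPM in KI and 47.2 ± 2.17 CPM in WT (SD, n = 3 each), a log2 fold change of 0.46 (SE 0.11). The adjusted p was 0.284 in edgeR's quasi-likelihood test and 0.0492 in DESeq2's Wald test, and without KI 3 DESeq2 gave 0.176 at a log2 fold change of 0.41. DESeq2 called Maoa in 0 of the 6 fits that left out a library, with adjusted p-values up to 0.28, so the call needed all 6 libraries. In the authors' deposited DESeq2 comparison Maoa did not pass (q = 0.0714). The changed base is not visible in a gene count, so Maoa's level does not check the genotype labels. Maoa (gene 17161, chromosome X, 16619698 to 16687812, GRCm38.p6) is followed on the chromosome by Maob, which encodes the related enzyme that prefers phenylethylamine. Maob was at 88.2, 94.7 and 74.2 CPM in KI, against 49.3, 82.3 and 60.8 CPM in WT, with 1 overlap between KI 3 and WT 2 and a DESeq2 adjusted p of 0.459, and 0.429 without KI 3. Per length, Maob was more abundant than Maoa in both genotypes, at 73.6 against 30.6 TPM in KI and 54.1 against 22.0 TPM in WT, where TPM is the authors' length-scaled abundance.

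Across the transcriptome, 14658 genes had enough counts to be tested. No gene passed an adjusted p of 0.05 in edgeR, whose smallest adjusted p was 0.251, although 1580 genes (10.8%) had an unadjusted p under 0.05. DESeq2 called 215 genes (1.47%), of which 132 (0.901%) rose and 83 (0.566%) fell in KI. In 214 of these the 3 KI libraries all lay to the same side of the 3 WT libraries, which was so for 2573 of all tested genes (17.6%), 8.9% with KI higher and 8.65% with KI lower. The log2 fold change was above 0 in 51% of genes and below 0 in 49%. Without KI 3, edgeR again called 0 genes, while 1456 genes had an unadjusted p below the threshold. DESeq2 then called 220 (1.49%), 111 higher (0.751%) and 109 lower (0.737%), and 133 genes were called both ways. Leaving out KI 1, KI 2 or WT 1 lowered the DESeq2 count to 80, 131 or 134, and leaving out WT 2 raised it to 406. Of the 215 calls, 45 were made in all 6 fits that left out a library. The rises and falls below are DESeq2 calls that edgeR did not make, with the log2 fold change and its SE from edgeR. The gene lists were drawn up with earlier results of these data known. Their counts, medians and scores therefore describe the lists and are no test. In simulated counts both tests made more false calls than the threshold implies, DESeq2 more than edgeR.

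Several of the largest rises were of receptor, peptide and signalling genes known from the habenula or hypothalamus. Chrnb3, a nicotinic acetylcholine receptor subunit of habenular and dopaminergic neurons, was at 4.83, 2.58 and 8.54 CPM in KI, against 0.116, 0.975 and 0.168 CPM in WT. All 3 KI libraries lay above all 3 WT libraries, and Chrnb3 rose with a log2 fold change of 3.62 (SE 0.73; adjusted p = 0.000103, and 0.0154 without KI 3). Its partner subunit Chrna3 rose, at 12.3, 6.46 and 13.5 CPM in KI, against 1.79, 4.71 and 2.3 CPM in WT (log2 fold change 1.86, SE 0.42; adjusted p = 0.00171, and 0.0385 without KI 3). Chrnb4, the third of these habenular subunits, did not pass (log2 fold change 1.61; adjusted p = 0.0984, and 0.384 without KI 3). Gpr151, an orphan receptor of habenular axons, rose as well, at 15.3, 8.4 and 16.8 CPM in KI, against 1.1, 5.47 and 1.29 CPM in WT (log2 fold change 2.35, SE 0.59; adjusted p = 0.00241, and 0.0441 without KI 3). KI and WT did not overlap for either gene. In all, 3 of the 8 habenular markers rose and none fell, against 0.901% of all genes that rose, with a median log2 fold change of 1.95, and 1.62 without KI 3, against 0.01 and -0.01 over all genes tested. The 3 rises were also made without KI 3, but only 1 without KI 1, and 6 without WT 2. The summed level of the 8 was 108.8, 49.37 and 141.7 CPM in KI, against 17.84, 46.03 and 14 CPM in WT. How far these genes moved with the share of habenular tissue was not tested.

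Of 16 tested hypothalamic markers, 5 rose and none fell, against 0.901% of all genes that rose, with a median log2 fold change of 1.97, and 1.88 without KI 3. The count was 4 without KI 3, 3 without WT 1 and 9 without either KI 2 or WT 2. The 5 were Baiap3, a regulator of dense-core vesicle return, the calcitonin receptor Calcr, the insulin receptor substrate Irs4, and the GABA-A receptor subunits Gabrq and Gabre. Baiap3 was at 163, 76.6 and 131 CPM in KI, against 33.6, 47.0 and 20.9 CPM in WT (log2 fold change 1.87, SE 0.35; adjusted p = 1.89e-05, and 0.000669 without KI 3). Irs4 was at 33.1, 8.87 and 14.2 CPM in KI, against 2.26, 4.66 and 1.29 CPM in WT (log2 fold change 2.77, SE 0.59; adjusted p = 6.26e-05). Without KI 3 its log2 fold change was 2.93 and its call was lost (adjusted p = 0.0666), as it was without WT 1 (0.191). KI and WT did not overlap for either gene. Without KI 3, the adjusted p was 0.0144 for Calcr, 0.00265 for Gabrq and 0.00023 for Gabre. The hypothalamic peptide genes did not pass, and the list was drawn up with earlier results of these data known. Pomc and Trh had log2 fold changes of -0.32 and -0.17, Oxt was at 36.9, 2.0 and 13.2 CPM in KI, against 2.14, 1.84 and 0.168 CPM in WT (adjusted p = 0.147, and 0.34 without KI 3), and Agrp was at most 0.188 CPM in any library. The summed level of the hypothalamic list was 432.4, 177.8 and 543.4 CPM in KI, against 154.4, 160.2 and 102 CPM in WT, and its part in these rises was not tested.

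In the fits that left out a library, 25 genes rose in all 6, among them AW551984, Sytl4, Scn9a and Adcyap1. AW551984 was at 65.0, 30.3 and 36.6 CPM in KI, against 7.59, 14.5 and 6.62 CPM in WT (log2 fold change 2.20, SE 0.38; adjusted p = 4.69e-06, and 2.13e-05 without KI 3). Sytl4, granuphilin, which docks secretory granules, was at 16.8, 9.69 and 11.3 CPM in KI, against 2.61, 4.66 and 2.08 CPM in WT (log2 fold change 2.01, SE 0.35; adjusted p = 2.19e-05, and 0.00029 without KI 3). Adcyap1, the peptide PACAP, was at 17.99, 10.6 and 32.0 CPM in KI, against 3.13, 6.56 and 4.15 CPM in WT (log2 fold change 2.12, SE 0.43; adjusted p = 0.000114, and 0.00553 without KI 3). In each of these 3 genes the lowest KI library lay above the highest WT library. Scn9a, the voltage-gated sodium channel of pain neurons, was at 6.7, 6.34 and 9.11 CPM in KI, against 2.61, 2.11 and 2.13 CPM in WT, with no overlap (log2 fold change 1.69, SE 0.24; adjusted p = 1.89e-05, and 0.000995 without KI 3). Esr1, estrogen receptor alpha, rose at a low level, at 7.05, 2.88 and 3.04 CPM in KI, against 0.637, 1.68 and 0.617 CPM in WT (log2 fold change 2.13, SE 0.52; adjusted p = 0.0113, and 0.0169 without KI 3). Unlike those genes, Esr1 lost its call without KI 1, WT 1 or WT 3.

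**Figure D2:**
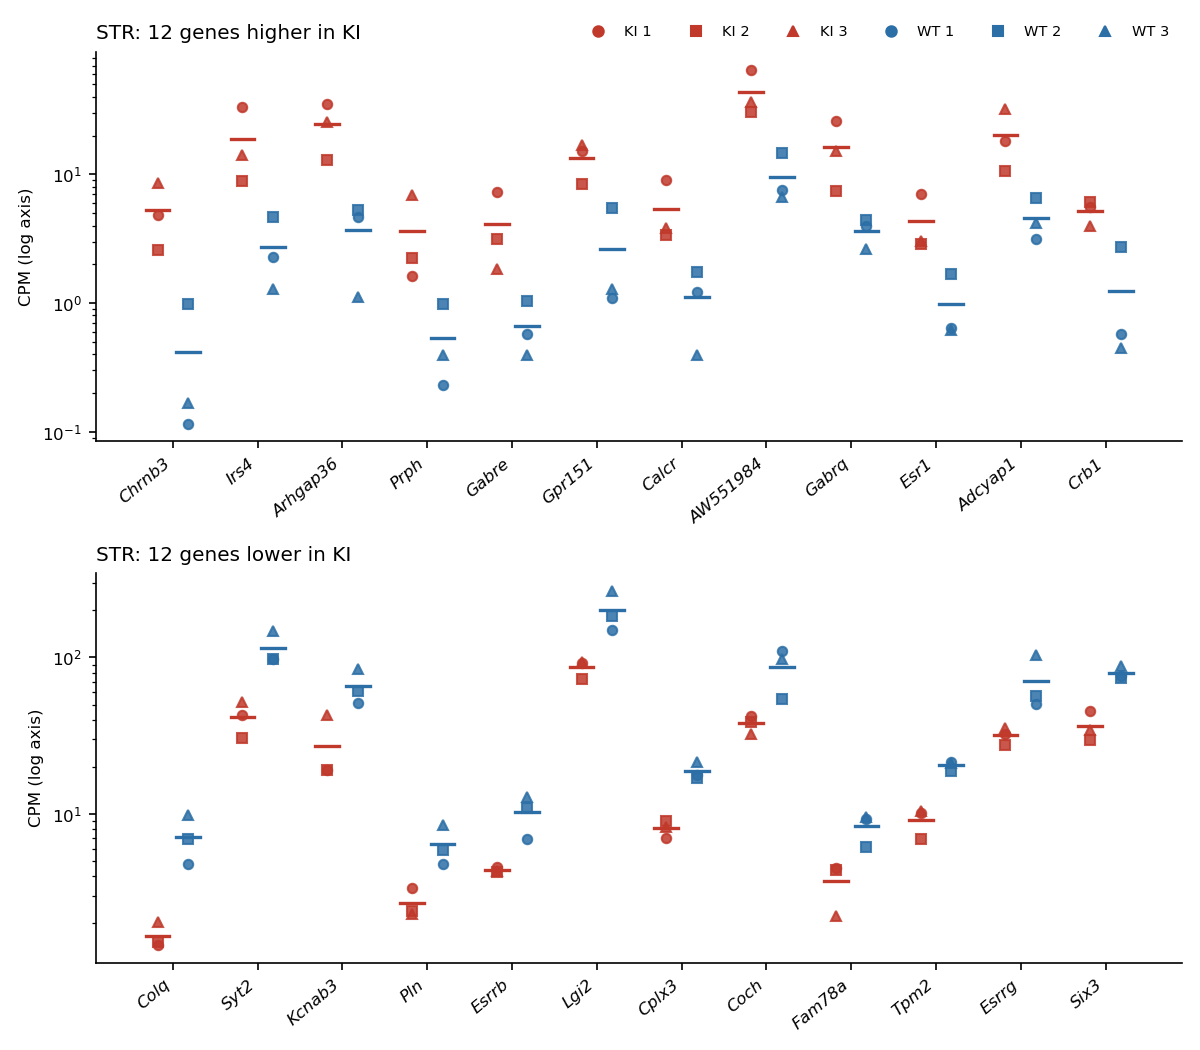
Level in CPM (log axis) in each KI (red) and WT (blue) STR library for the 12 genes with the largest rises (top) and the 12 with the largest falls (bottom) among DESeq2 calls, with a bar at each genotype's mean. KI and WT do not overlap in any of the 24 genes, with the widest gap on this scale in Chrnb3 among rises and Colq among falls.

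Of 34 tested neuropeptides and their receptors, 7 rose and none fell, against 0.901% of all genes that rose, 28 had a higher mean in KI, and the median log2 fold change was 0.78, and 0.62 without KI 3. The count was sensitive to the libraries, with 4 rises and 1 fall (Crhr1, adjusted p = 0.00854) without KI 3, 1 rise without KI 1, 2 without WT 1 and 11 without WT 2. The 7 were Adcyap1, Calcr, the thyrotropin-releasing hormone receptor Trhr, the CART peptide gene Cartpt, the galanin receptor Galr1, the orexin receptor Hcrtr2 and the somatostatin receptor Sstr1. Trhr was at 6.17, 4.17 and 3.29 CPM in KI, against 1.1, 1.9 and 0.729 CPM in WT (log2 fold change 1.86, SE 0.40; adjusted p = 0.00538, and 0.0063 without KI 3). Sstr1 was at 17.9, 17.7 and 11.8 CPM in KI, against 7.64, 9.43 and 8.47 CPM in WT (log2 fold change 0.89, SE 0.20; adjusted p = 0.018, and 0.00029 without KI 3). KI and WT did not overlap in any of the 7, though several calls depended on single libraries. Galr1 was called in 0 and Hcrtr2 in 1 of the 6 fits that left out a library, while their log2 fold changes were 1.52 and 1.21 with all libraries and 1.62 and 1.23 without KI 3. Cartpt lost its call without KI 1 and without KI 3 (adjusted p = 0.147), and Trhr and Sstr1 lost theirs without KI 1, KI 2, WT 1 or WT 3. The peptides of projection neurons did not pass, and Tac1, substance P, was at 91.3, 52.7 and 33.6 CPM in KI, against 187, 61.6 and 84.0 CPM in WT (adjusted p = 0.642, and 0.891 without KI 3).

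Falls were frequent among genes of neurons that fire fast or have large axons. Of the 19 genes of that list, all had a lower mean in KI, 7 fell by DESeq2 and none rose, against 0.566% of all tested genes. Their median log2 fold change was -0.85, and -1.02 without KI 3, where 12 members fell against 0.737% of all genes. Syt2, the fast calcium sensor of transmitter release, was at 42.8, 30.5 and 52.0 CPM in KI, against 97.6, 97.7 and 148 CPM in WT. The groups did not overlap, and Syt2 fell by 1.45 on the log2 scale (SE 0.24; adjusted p = 1.31e-05, and 1.3e-06 without KI 3). Lgi2, a secreted synaptic protein, was at 92.7, 72.7 and 93.8 CPM in KI, against 149, 184 and 266 CPM in WT (log2 fold change -1.21, SE 0.22; adjusted p = 9.59e-05, and 0.000669 without KI 3). Cplx1, a complexin that clamps vesicle fusion, was at 524, 487 and 715 CPM in KI, against 917, 981 and 1216 CPM in WT (log2 fold change -0.85, SE 0.18; adjusted p = 0.00245, and 7.41e-06 without KI 3). Kcnc1, the Kv3.1 channel that ends each spike quickly, was at 141, 122 and 186 CPM in KI, against 199, 264 and 338 CPM in WT (log2 fold change -0.84, SE 0.22; adjusted p = 0.0264, and 0.00464 without KI 3). Neither overlapped between genotypes. The others that fell were the potassium channel subunit Kcnab3, the neurofilament Nefm and Spp1, osteopontin, with adjusted p-values of 4.74e-09, 0.0483 and 0.00827 without KI 3.

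Pvalb, parvalbumin, which marks the fast-spiking interneurons, was at 156, 94.8 and 239 CPM in KI, against 301, 318 and 281 CPM in WT. Its groups did not overlap, and it passed without KI 3 (adjusted p = 6.4e-05) but not with it (0.0832). Vamp1, Nefh and Kcna2 were among the members that also passed only without KI 3. The count of members that fell was sensitive to the libraries: it was 2 without KI 1, 2 without KI 2, 9 without WT 1, 5 without WT 2 and 3 without WT 3. The thalamus also uses several of these genes, and WT 3, the highest library for Syt2, Lgi2, Cplx1 and Kcnc1, had the highest thalamic score of 6.54. WT 1 had the lowest thalamic score, 5.07, with Syt2 at 97.6 CPM. KI 3 scored 6.01, above WT 2 at 5.88, with Syt2 at 52.0 CPM against 97.7 CPM in WT 2. Of 13 thalamic markers 5 had a higher and 8 a lower mean in KI, with a median log2 fold change of -0.58, and -0.9 without KI 3. The globus pallidus score, for a list that holds Pvalb, was 4.06, 3.66 and 3.92 in KI, against 4.19, 4.02 and 4.1 in WT. The part of either region in the falls was not tested.

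**Figure D3:**
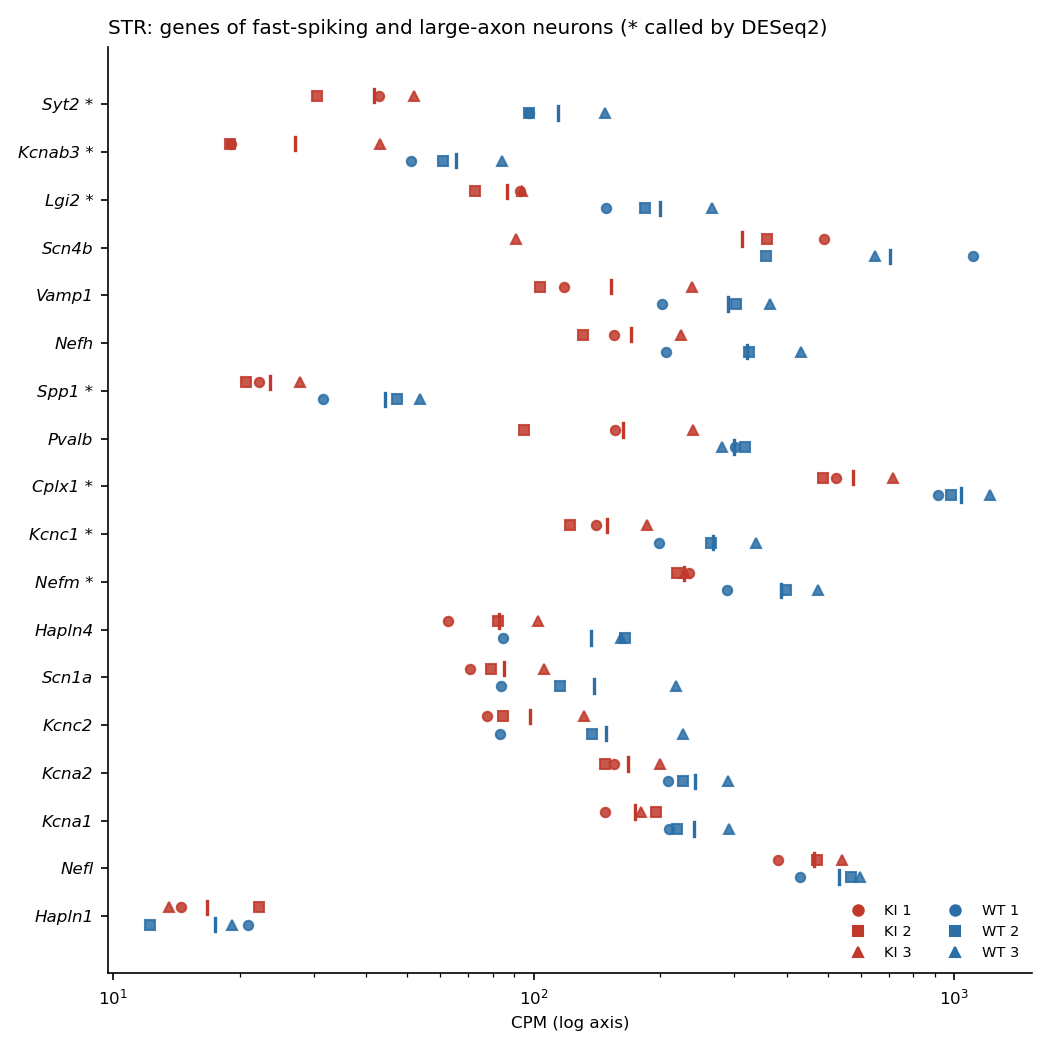
Level in CPM (log axis) of 18 of the 19 genes of fast-spiking and large-axon neurons in each KI (red) and WT (blue) STR library, with a bar at each genotype's mean and an asterisk where DESeq2 called the gene lower. All 18 means are lower in KI, and Syt2, at the top, is lower in KI by the largest fold.

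Colq, the collagen tail that anchors acetylcholinesterase, had the largest fall of all named genes. It was at 1.46, 1.53 and 2.02 CPM in KI, against 4.75, 6.88 and 9.82 CPM in WT, with no overlap (log2 fold change -2.10, SE 0.32; adjusted p = 1.89e-05, and 8.61e-05 without KI 3). Of 18 acetylcholine synapse genes, Chrnb3 and Chrna3 rose, and Colq and the nicotinic subunit Chrna4 fell, against 0.901% of all genes that rose and 0.566% that fell, with a median log2 fold change of -0.19, and -0.15 without KI 3. Chrna4 passed without KI 3 (adjusted p = 0.01) and lost its call without KI 1, KI 2, WT 2 or WT 3. Chat, the acetylcholine-synthesising enzyme of cholinergic interneurons, was at 6.7, 5.46 and 2.91 CPM in KI, against 15.0, 5.53 and 10.1 CPM in WT, and did not pass (adjusted p = 0.245, and 0.622 without KI 3). Ache itself, the enzyme that Colq anchors, had a log2 fold change of -0.03 (SE 0.14), and -0.14 without KI 3.

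GABA signalling genes moved in both directions. Gad1, which makes GABA, was at 519, 452 and 387 CPM in KI, against 772, 729 and 1030 CPM in WT (log2 fold change -0.90, SE 0.17; adjusted p = 0.000632, and 0.0107 without KI 3). Gabrd, the subunit of extrasynaptic GABA-A receptors, was at 74.3, 66.3 and 75.1 CPM in KI, against 160, 115 and 139 CPM in WT (log2 fold change -0.94, SE 0.14; adjusted p = 2.75e-05, and 0.000381 without KI 3). Both fell in all 6 fits that left out a library, with no overlap between genotypes. Against these falls, Gabrq, Gabre and Gabrg1 rose, which with the fall of Gabrd makes 3 rises and 1 fall among 17 GABA receptor genes, against 0.901% and 0.566% of all genes. Without KI 3 the counts were also 3 and 1, and without KI 1 they were 1 and 1, where Gabre and Gabrg1 lost their calls. Gabrg1 lost its call without KI 2 too. Gabrg1 was at 62.5, 59.6 and 49.5 CPM in KI, against 32.7, 39.3 and 31.0 CPM in WT (log2 fold change 0.74, SE 0.14; adjusted p = 0.0039, and 0.000758 without KI 3). The other 13 GABA receptor genes did not pass, and Gad2 had a log2 fold change of -0.40 (adjusted p = 0.631, and 0.93 without KI 3).

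Of 80 potassium channel genes, 6 fell and none rose, against 0.566% of all genes that fell, and 58 had a lower mean in KI, with a median log2 fold change of -0.26, and -0.21 without KI 3. The count rested on single libraries: 0 fell without KI 1, 2 without KI 2 and 2 without WT 3, while 9 fell and 1 rose without KI 3. Besides Kcnab3 and Kcnc1, the falls were of Kcnk1, Kcnh2, Kcns1 and Kcnj11. Kcnh2 and Kcns1 had adjusted p-values of 0.0375 and 0.0201 without KI 3. Kcnj11, the pore of the ATP-sensitive channel, was at 22.5, 24.9 and 25.6 CPM in KI, against 41.5, 35.4 and 38.8 CPM in WT (log2 fold change -0.66, SE 0.12; adjusted p = 0.00295, and 0.01 without KI 3), and Kcnk1 lost its call without KI 3 (adjusted p = 0.0884). Hcn2, the pacemaker channel gene, is outside the lists and was chosen after its values were seen. It was at 206, 194 and 235 CPM in KI, against 336, 286 and 328 CPM in WT, with no overlap (log2 fold change -0.58, SE 0.12; adjusted p = 0.00629, and 0.00248 without KI 3).

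All 3 genes of the estrogen-related receptors, orphan nuclear receptors that drive genes of mitochondrial energy supply, fell, where 0.566% of all genes did. The family was singled out after its values were seen. Esrrb was at 4.6, 4.23 and 4.3 CPM in KI, against 6.95, 10.9 and 12.8 CPM in WT (log2 fold change -1.23, SE 0.25; adjusted p = 0.00376, and 0.0273 without KI 3). Esrrg was at 32.4, 27.6 and 35.6 CPM in KI, against 50.7, 56.5 and 104 CPM in WT (log2 fold change -1.14, SE 0.27; adjusted p = 0.00519, and 0.0144 without KI 3). Esrra was at 59.7, 73.1 and 75.2 CPM in KI, against 104, 104 and 107 CPM in WT (log2 fold change -0.60, SE 0.12; adjusted p = 0.00506, and 0.00624 without KI 3). No KI library reached the lowest WT library in any of the 3. Esrrb lost its call without KI 2 or WT 3, and Esrrg without KI 1 or KI 2. Of 83 subunits of oxidative phosphorylation none passed with all libraries and 1 fell without KI 3. The mean was lower in KI in 63 of the 83, against 49% of all genes, and in 80 without KI 3. Their median log2 fold change was -0.11, and -0.21 without KI 3.

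Promoters are shown for 3 of the genes that fell, because each holds AAGGTCA, a short nuclear receptor site, on either strand. Syt2 and Hcn2 also hold the longer TCAAGGTCA, the estrogen-related receptor element, and Lgi2 does not. The sequences are RefSeq's for GRCm38.p6 and run 5′ to 3′ on the gene's strand from 250 bases before to 50 after the start. Capitals mark matches to AAGGTCA or its reverse complement TGACCTT, extended where the longer TCAAGGTCA or TGACCTTGA is present. Syt2 lies at chr1:134646362-134646661 on the plus strand, Lgi2 at chr5:52566257-52566556 on the minus strand and Hcn2 at chr10:79716384-79716683 on the plus strand.
Syt2: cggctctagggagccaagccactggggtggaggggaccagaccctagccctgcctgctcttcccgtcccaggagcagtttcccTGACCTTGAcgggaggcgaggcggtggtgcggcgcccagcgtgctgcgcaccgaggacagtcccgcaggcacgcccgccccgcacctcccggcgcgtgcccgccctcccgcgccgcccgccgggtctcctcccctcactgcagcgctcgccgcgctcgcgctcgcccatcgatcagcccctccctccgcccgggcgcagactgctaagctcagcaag
Lgi2: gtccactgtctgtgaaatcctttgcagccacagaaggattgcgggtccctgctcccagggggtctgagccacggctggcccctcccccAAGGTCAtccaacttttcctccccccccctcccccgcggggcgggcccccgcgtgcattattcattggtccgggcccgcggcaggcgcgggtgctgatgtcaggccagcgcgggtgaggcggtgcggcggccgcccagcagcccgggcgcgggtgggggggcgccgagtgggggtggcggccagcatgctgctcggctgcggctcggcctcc
Hcn2: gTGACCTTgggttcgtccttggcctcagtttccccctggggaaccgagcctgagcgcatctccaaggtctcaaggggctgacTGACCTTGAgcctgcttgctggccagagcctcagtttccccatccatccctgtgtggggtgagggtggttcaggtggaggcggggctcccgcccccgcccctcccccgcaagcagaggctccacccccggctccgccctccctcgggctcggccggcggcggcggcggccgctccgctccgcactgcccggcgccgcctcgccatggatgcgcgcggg

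The longer element TCAAGGTCA, searched on both strands, was in 41 of the 11649 tested genes with a promoter sequence (0.352%). It was in 2 of 42 genes that fell with and without KI 3 (4.76%), which are Syt2 and Hcn2, and in 0 of 63 genes that rose both ways. The shorter AAGGTCA, which the longer one contains, was in 468 promoters (4.02%), in 3 of the 42 (7.14%) and in 1 of the 63 (1.59%). The cAMP response element TGACGTCA was in 396 promoters (3.4%), 0 of the 42 and 3 of the 63 (4.76%). These matches are descriptions of letters in a window and no binding was measured.

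Most listed genes of striatal projection neurons had lower means in KI, but none passed with all 6 libraries or without KI 3. Without WT 2, where DESeq2 called 406 genes in all, 4 shared markers, 1 direct-pathway and 1 indirect-pathway gene fell. With a block for the replicate number, 4 shared markers and 1 direct-pathway gene fell. All 20 shared markers had a lower mean, with a median log2 fold change of -0.88, and -0.52 without KI 3. Ppp1r1b, DARPP-32, was at 905, 725 and 178 CPM in KI, against 2270, 768 and 1000 CPM in WT. The genotypes overlapped in all 20 genes, and the list's score of WT 2 lay near those of KI 1 and KI 2. Drd1, the dopamine receptor of the direct pathway, was at 76.5, 54.1 and 9.55 CPM in KI, against 164, 47.4 and 101 CPM in WT. Drd2, that of the indirect pathway, was at 78.8, 65.5 and 21.8 CPM in KI, against 243, 64.9 and 112 CPM in WT. Neither passed, with adjusted p-values of 0.705 and 0.479, and 0.862 and 0.787 without KI 3. Six3, a transcription factor of the indirect-pathway lineage, did fall and did so in all 6 fits that left out a library, at 45.2, 29.6 and 34.2 CPM in KI, against 76.4, 73.9 and 88.3 CPM in WT (log2 fold change -1.13, SE 0.17; adjusted p = 1.37e-05, and 0.000576 without KI 3).

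Other genes that handle monoamines did not pass with all 6 libraries or without KI 3, while 1 rose without KI 2. Of 18 monoamine enzymes and transporters, Maoa was the only DESeq2 call, and the list's median log2 fold change was 0.25, and -0.02 without KI 3. Th, the dopamine-synthesising enzyme, was at 8.21, 2.35 and 36.04 CPM in KI, against 7.41, 2.65 and 3.53 CPM in WT, high only in KI 3 (adjusted p = 0.582, and 0.972 without it). Of 11 serotonin receptor genes none passed with all 6 libraries or without KI 3. Htr1a, Htr4 and Htr7 were higher in every KI library than in every WT library, as were 8.9% of all genes. Without WT 2, 3 serotonin receptor genes rose, and 1 rose with a block for the replicate number. Htr1a was at 10.2, 14.5 and 11.3 CPM in KI, against 4.23, 9.37 and 3.53 CPM in WT (adjusted p = 0.127, and 0.261 without KI 3).

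**Figure D4:**
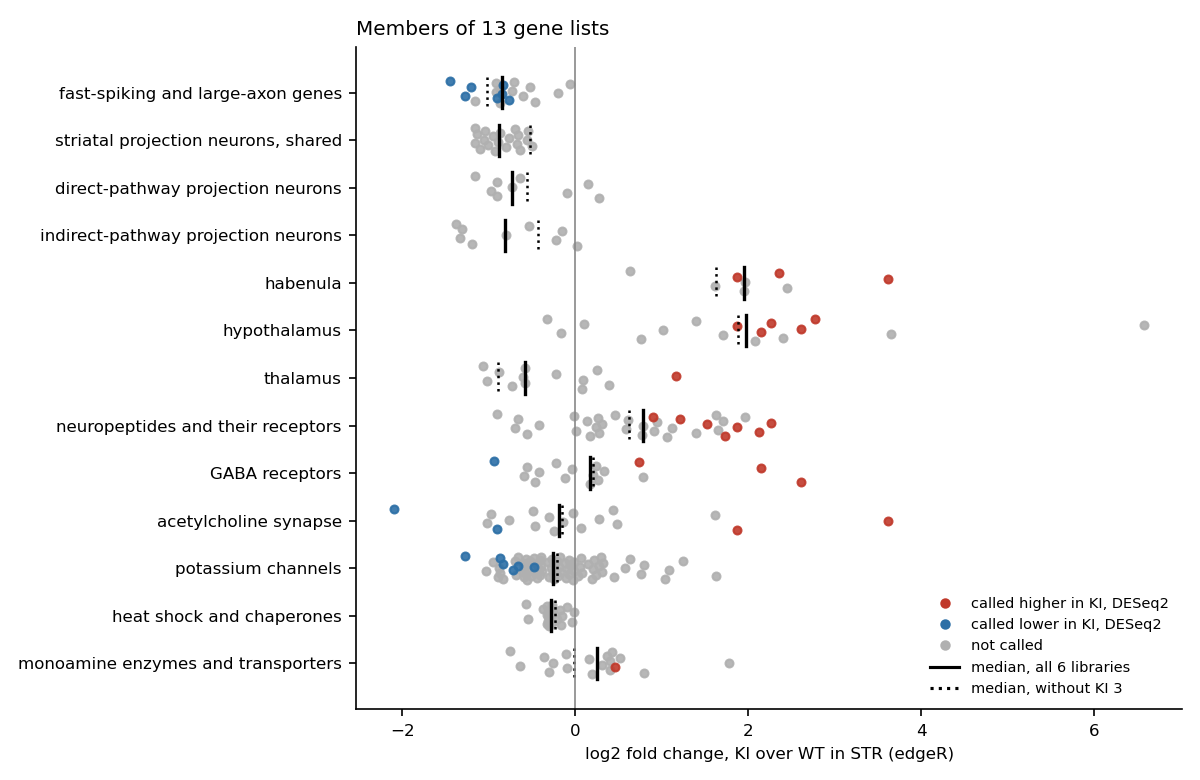
Log2 fold change (KI over WT, horizontal axis) of each tested member of 13 gene lists, with DESeq2 calls in red (higher in KI) and blue (lower in KI), and medians with all 6 libraries (solid) and without KI 3 (dotted). The fast-spiking and shared projection neuron lists lie below 0, and the direct- and indirect-pathway lists mostly below. The habenular list lies above 0 and the hypothalamic list mostly above, and the fast-spiking list has 7 lower calls.

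The X chromosome held 27 of the 132 rises (20.5%) and 0 of the 83 falls, with 526 of the genes tested (3.59%). Of its tested genes 5.13% rose, against 0.901% of all genes. Of the 27, 17 also rose without KI 3. The 27 lay from 9.8 Mb before Maoa to 148.5 Mb after it. Among them were Sytl4 and the hypothalamic markers Irs4, Gabre and Gabrq. Ddx3y, which is on the Y chromosome, was at 62.5, 73.0 and 62.4 CPM in KI, against 49.8, 53.3 and 76.2 CPM in WT, so Y-linked RNA was present in all 6 libraries. Within 5 Mb on either side of Maoa, 33 other genes were tested and none was called, with a median log2 fold change of 0.11.

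**Figure D5:**
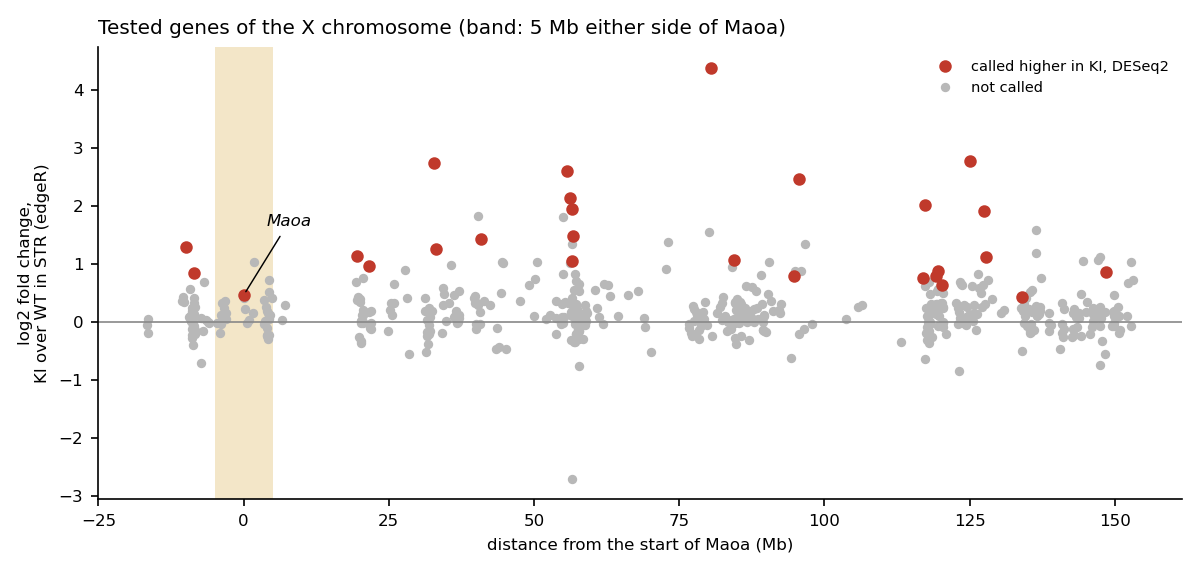
Log2 fold change (KI over WT, vertical axis) of the tested X-linked genes by distance from the start of Maoa in Mb, with DESeq2 calls in red. The 27 calls, all above 0, are spread along the chromosome, and Maoa is the only call inside the shaded band of 5 Mb to either side.

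Genes that differ between C57BL/6 substrains were also examined, since the labels do not name a substrain. Nnt, a mitochondrial transhydrogenase whose allele differs between substrains, fell, at 23.3, 23.6 and 19.7 CPM in KI, against 38.7, 32.9 and 38.5 CPM in WT (log2 fold change -0.72, SE 0.13; adjusted p = 0.00247, and 0.0248 without KI 3). The groups did not overlap. Crb1, mutated in a substrain, rose, at 5.53, 6.11 and 3.98 CPM in KI, against 0.579, 2.71 and 0.449 CPM in WT (adjusted p = 0.0391, and 0.0744 without KI 3). The other 6 of 8 such genes did not pass.

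Whether the STR differences exceed those in the other regions was tested as the KI minus WT difference in STR, less its mean over the other 5 regions, in a fit of all 36 libraries. Of 15367 genes, 1 passed (0.00651%), and it was none of the 57 genes named by rule, whose smallest adjusted p was 0.272. The gene was Lrrc55, an auxiliary subunit of BK potassium channels. It was at 37.7, 29.3 and 41.7 CPM in KI STR, against 11.1, 21.7 and 14.4 CPM in WT STR, with no overlap. Its difference from the other regions was 1.63 on the log2 scale (SE 0.27; edgeR adjusted p = 0.0217), and 1.53 without KI 3 (adjusted p = 0.21). With a block for the replicate number within each genotype, no gene passed this contrast. For Syt2 the difference from the other regions was -0.35 (adjusted p = 0.977). Of the 36 libraries, 8 scored below the midpoint between the median of libraries that should carry their region's markers and the median of the others, KI 3 of STR among them. Leaving out the 8 left KI Nac and KI SN with 1 library each. For single genes, that fit is therefore given by its effect sizes alone. Its differences were 1.45 for Lrrc55 and -0.96 for Syt2.

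Single transcripts gave a further 38356 tests, and edgeR called 0 of them, although 1701 had an unadjusted p below the threshold. In simulated transcript counts edgeR recovered none of the changes, so its lack of calls cannot show that transcripts were unchanged. DESeq2 made more false calls there than it recovered changes. DESeq2 called 644 (1.68%), in 597 genes, of which 121 transcripts belonged to genes called at the gene level. Because 238 of the 644 were listed at 0 in every library of a genotype, and an estimated count of 0 can be a failed assignment between isoforms, such calls carry no fold change here. Transcript NM_001164791 of Map3k20, a stress kinase, was at 10.03, 7.29 and 7.59 CPM in KI and listed at 0 in all 3 WT libraries, while the whole gene had a log2 fold change of -0.11. Transcripts with counts in every library gave tighter values. Got2 (NM_010325), the mitochondrial aspartate aminotransferase, was at 296, 299 and 274 CPM in KI, against 405, 401 and 407 CPM in WT, and Anxa6 (NM_013472), a calcium-dependent membrane protein, was at 96.8, 90.9 and 92.7 CPM in KI, against 130, 130 and 127 CPM in WT. Zfp385a (NM_013866) was at 23.9, 25.2 and 26.8 CPM in KI, against 61.6, 55.8 and 75.9 CPM in WT, and like Got2 and Anxa6 was also called as a gene.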

How the data were processed

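The deposited gene and transcript tables hold estimated counts made by the authors, per the file headers, and TPM per gene, which the authors scaled by length and library. The build GRCm38.p6 is named in the submitters' processing notes, and a SMARTER mRNA kit in the labels' protocols. Aligner, counting tool and strand use: not given in the sources used here. The authors' deposited comparison holds log2 fold changes, p-values and q-values that its headers ascribe to DESeq2. Of its 200 calls at q under 0.05, 199 were also called here, all in the same direction. Maoa was not among the 200, with a q-value of 0.0714. A further 240 per-sample columns were not used.

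Estimated counts were rounded (9.9% of gene values and 52.1% of STR transcript values were not whole), filtered on low counts by edgeR's filterByExpr and scaled by TMM, and tested with edgeR 4.0.16 (quasi-likelihood, the main test) and DESeq2 1.42.0 in R 4.3.3, with Benjamini-Hochberg adjustment over all features at 0.05. Gene CPM use TMM and marker scores use total counts. DESeq2 names the genes because edgeR called none. Of the gene IDs, 18965 of 19025 matched RefSeq. In simulated counts the gene tests recovered most changes. These were placed in well-counted genes alone, and no outlying library such as KI 3 was simulated, so recovery in the real libraries may differ. Both gene tests made more false calls than the threshold implies, DESeq2 more than edgeR, and the transcript tests were not reliable. Named genes were Maoa, the 12 largest rises and falls among DESeq2 calls whose groups did not overlap (mean log2 CPM of at least 1, no predicted symbols), the 10 largest called with and without KI 3, and called list members. The members and lists were chosen with earlier results of these data known. Alternatives were each library left out, no filter, other size factors, a replicate block, voom weights (limma 3.58.1) and a fit of all 36 libraries. Replicate numbers shared between genotypes were not treated as pairs. Some single genes are not reported here.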

Additional observations from a re-analysis of the deposited data

Results flagged for a closer look

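Lrrc55, the BK channel subunit gene, is listed because its KI to WT difference in STR was unlike that in the other regions by a test of the difference itself, 1.63 on the log2 scale (SE 0.27; edgeR adjusted p = 0.0217). Its log2 fold change was 1.19 in STR, 0.04 in HP, -0.33 in PFc, -0.58 in Nac, -1.02 in SN and -0.33 in VTA. Without the 8 libraries below their own marker midpoint the difference was 1.45. Without KI 3 it was 1.53 (adjusted p = 0.21). With a block for the replicate number within each genotype, Lrrc55 did not pass.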

How the results depend on the processing

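edgeR called 0 genes with all 6 libraries and 0 to 2 when a library was left out, the 2 being Calb2 and Cadps2 without WT 2, and 1 (Nnt, lower) in the fit of all 36 libraries, against 215 with DESeq2. The DESeq2 count ranged from 80 to 406 over the left-out libraries, 80 without KI 1, 131 without KI 2, 220 without KI 3, 134 without WT 1, 406 without WT 2 and 238 without WT 3. It was 210 with no filter and 217 with TMM factors. Maoa's log2 fold change was 0.41 to 0.51 over the left-out libraries and 0.454 in DESeq2, where it passed with all 6 libraries (adjusted p = 0.0492) and in none of the 6 fits that left out a library, and its adjusted p over the edgeR alternatives was 0.27 to 0.762. The contrast with the other regions called 1 gene, 0 without KI 3 and 61 without the 8 libraries below their marker midpoint. The fit without the 8 libraries left KI Nac and KI SN with 1 library each, so no conclusion is drawn from its count. For transcripts DESeq2 called 644, and 769 without KI 3, an alternative chosen after seeing the data, against 0 in edgeR. Over the named genes, 372 single values kept their call, 137 lost it and 0 changed sign. The cause was not tested.

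Within STR the replicate block did not rest on pairs, since KI and WT samples with the same number deviated together by correlations of 0.218, 0.0633 and -0.0606. With it, DESeq2 called 235 genes, 134 of them among the 215, edgeR called 0, and Maoa's log2 fold change was 0.459. The contrast with the other regions had another block, for the replicate number within each genotype across regions. These correlations do not bear on that block. With it the contrast called 0 genes, so Lrrc55 did not pass.

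With 3 libraries a genotype and every KI library shallower than every WT library, genes near 1 CPM rest on few counts. The marker scores and the genotype cannot be told apart where they move together.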

Other observations

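Further gene groups had most means on the same side without a call with all 6 libraries. All 21 heat shock and chaperone genes had a lower mean in KI, 9 without overlap between genotypes, against 8.65% of all genes lower without overlap. Their median log2 fold change was -0.28, and -0.23 without KI 3, and DESeq2 called none of them. Hspa8, the constitutive HSC70, was at 2439, 2178 and 2212 CPM in KI, against 3077, 2940 and 2821 CPM in WT (DESeq2 adjusted p = 0.0652, and 0.229 without KI 3). Of 13 endoplasmic reticulum chaperones 12 had a lower mean in KI, and 1 fell without KI 3. Without KI 3, 1 clock gene fell as well. Among 19 clock genes 16 had a lower mean, with Dbp, an output gene of the clock, at 76.2, 76.1 and 100.2 CPM in KI, against 156, 120 and 106.5 CPM in WT (adjusted p = 0.0996).

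Cytosolic ribosomal protein genes had higher means in KI in 71 of 78, with a median log2 fold change of 0.16, and 0.01 without KI 3, where 41 were higher. Without WT 3, 40 were higher. Mbp, the myelin basic protein gene, rose, at 8833, 7774 and 17050 CPM in KI, against 5885, 5427 and 5142 CPM in WT (DESeq2 adjusted p = 0.019), and so did Bcas1, a gene of early myelinating cells, at 495, 427 and 1189 CPM in KI, against 327, 332 and 292 CPM in WT. Both had higher levels in KI 3 than in the other KI libraries and were also called without it, but each lost its call without WT 1, WT 2 or WT 3. Mbp was the only call among 15 mature oligodendrocyte genes. Of these, 8 had a higher and 7 a lower mean in KI, with a median log2 fold change of 0.07. The mature oligodendrocyte score was 9.1, 8.9 and 8.79 in KI, against 8.97, 8.64 and 8.84 in WT.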
